A study of Mus musculus with 23 samples.

Results

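The mitotic kinases, kinesins and spindle genes were followed in mouse mammary carcinomas after treatment with abemaciclib, a drug that blocks CDK4 and CDK6, the cyclin-dependent kinases of the G1 phase. They were picked by symbol from a targeted panel, as the genes of the KIF, CENP, NEK, PLK, aurora, BUB, CDC, cyclin B, SMC, NCAP, NDC80 and tubulin alpha, beta and gamma families. Cdc6, Cdc7, Cdc45, Cdc25c, Bub1b, Smc4, Cdc42 and its relatives were set aside, 10 genes in all, which left 27 of the 3826 genes measured. There were 12 tumours from animals given abemaciclib at 90 mg/kg each day by gavage and 11 from animals given vehicle only, here called control. All tumours had been induced with doxycycline from 6 weeks of age, were established before animals were randomized, and were taken after the 12th dose. The strain and the gene that doxycycline switched on were not stated in the labels. Tumours are numbered without naming the animal each came from, so the p-values measure only the spread between these tumours.

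A cell that commits to division passes a restriction point at which CDK4 and CDK6, with D-type cyclins, phosphorylate the retinoblastoma protein and free E2F transcription factors. Genes needed later, in G2 and mitosis, are kept low in resting cells by the DREAM complex, which sits at the promoter sequence called the cell-cycle genes homology region, and are activated in cycling cells by B-MYB, FOXM1 and NF-Y, the last of which binds CCAAT boxes. Their products condense and hold the chromosomes, build the spindle, attach it to kinetochores and then cut the cell apart. Not every gene of these families does this. Several kinesins carry cargo along microtubules in cells that do not divide, cohesin also shapes chromosomes in interphase, and some tubulins are made mainly in neurons.

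Promoters of 6 of the genes are shown for these sequences. Kif14, Ccnb2, Cdc20 and Cenpn hold both and were lower with the drug at an unadjusted p under 0.05, while Ncapd2, a condensin gene, holds both and was not. The sequences are from RefSeq, build GRCm38.p6, which is the assembly that mm10 names. Each is the 250 bases before the start that the promoter table lists for the gene, 5′ to 3′ on the gene's own strand, and ends next to that start. Capitals mark TTTGAA, the letters of the homology region, and CCAAT, the letters of the NF-Y box, on either strand, so that TTCAAA and ATTGG are the same letters read from the other strand. Smc3, a cohesin gene, holds neither and was also lower at an unadjusted p under 0.05. The listed starts of Kif14, Cenpn and Ncapd2 lie inside the span annotated for the gene, so all of the printed stretch of Kif14 and Ncapd2 and the end of that of Cenpn fall within it.
Kif14, chr1:136467598-136467847, plus strand: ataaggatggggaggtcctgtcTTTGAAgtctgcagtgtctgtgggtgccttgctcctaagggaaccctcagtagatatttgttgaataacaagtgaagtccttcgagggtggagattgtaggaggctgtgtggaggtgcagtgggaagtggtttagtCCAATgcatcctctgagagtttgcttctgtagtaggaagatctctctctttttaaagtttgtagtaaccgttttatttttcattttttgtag
Ccnb2, chr9:70421555-70421804, minus strand: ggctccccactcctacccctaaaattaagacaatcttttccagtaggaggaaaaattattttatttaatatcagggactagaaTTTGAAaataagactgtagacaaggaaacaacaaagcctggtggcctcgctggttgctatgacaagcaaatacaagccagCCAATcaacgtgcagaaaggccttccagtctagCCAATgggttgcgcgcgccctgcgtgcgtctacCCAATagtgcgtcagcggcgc
Cdc20, chr4:118437344-118437593, minus strand: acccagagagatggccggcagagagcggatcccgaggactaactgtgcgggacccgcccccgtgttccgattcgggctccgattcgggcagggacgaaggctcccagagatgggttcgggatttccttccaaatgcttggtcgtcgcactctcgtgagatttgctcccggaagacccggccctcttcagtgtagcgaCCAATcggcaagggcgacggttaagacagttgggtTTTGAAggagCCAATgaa
Cenpn, chr8:116921490-116921739, plus strand: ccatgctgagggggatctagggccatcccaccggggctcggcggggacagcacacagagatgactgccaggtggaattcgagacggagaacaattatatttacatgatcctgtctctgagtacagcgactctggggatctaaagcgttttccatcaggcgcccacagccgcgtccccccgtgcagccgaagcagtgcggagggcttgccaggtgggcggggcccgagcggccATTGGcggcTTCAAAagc
Ncapd2, chr6:125191587-125191836, minus strand: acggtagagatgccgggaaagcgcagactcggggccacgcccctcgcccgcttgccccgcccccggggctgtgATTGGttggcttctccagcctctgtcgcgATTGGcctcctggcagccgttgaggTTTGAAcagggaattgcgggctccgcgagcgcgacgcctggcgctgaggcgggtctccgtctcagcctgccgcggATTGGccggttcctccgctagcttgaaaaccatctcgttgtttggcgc
Smc3, chr19:53600146-53600395, plus strand: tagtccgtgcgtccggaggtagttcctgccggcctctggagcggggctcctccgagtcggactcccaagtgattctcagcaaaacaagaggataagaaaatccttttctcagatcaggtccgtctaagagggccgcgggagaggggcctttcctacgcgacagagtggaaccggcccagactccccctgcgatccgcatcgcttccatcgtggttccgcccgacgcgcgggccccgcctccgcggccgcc

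The search covered 300 bases, from 250 before to 50 after the start, on both strands. Promoter entries were found for 23 of the 27 genes. The letters TTTGAA were present in 9 of these 23 genes, in 17.9% of all 32851 RefSeq promoters of this length and in 14.2% of the 2227 panel genes with an entry. Among the 9, Ncapd3 held them only in a second listed entry, which lies inside the span annotated for the gene. The listed entries of Kif2c and Aurka also lie inside the spans annotated for these genes. CCAAT was present in 16 of 23 genes, in 37.4% of promoters and in 42.9% of panel genes. Both together were present in Aurka, Ccnb2, Cdc20, Cenpn, Kif14, Ncapd2 and Plk1, 7 of 23, in 6.95% of promoters and in 6.51% of panel genes. A further search, for the E2F-type letters TTTCCCGC, TTTCGCGC, TTTGCCGC and TTTGGCGC found Cdc25a, Ncapd2 and Smc1a, 3 of 23, against 2.26% of promoters and 5.25% of panel genes. None of these searched words contains another. In Cdc20 the TTTGAA word began 18 bases before the start, between CCAAT words that began 53 and 8 bases before it. In Cenpn the TTTGAA word began 9 and the CCAAT word 18 bases before the start. In Aurka and Plk1 the TTTGAA word lay beyond the start. Ccnb2 also held a second TTTGAA word, which began at base 5 after the start, outside the printed stretch. Of the 13 genes with an entry whose level was lower at an unadjusted p under 0.05, 7 held TTTGAA, 10 held CCAAT and 6 held both. Of the 7 other tested genes with an entry, 2 held TTTGAA, 4 held CCAAT and 1 held both. The E2F-type letters went the other way, in 0 of the 13 lower genes and 3 of the 7 others. A match of letters shows no binding, and whether these factors occupied the promoters was not measured.

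Expression was read with an amplicon panel that reads each gene by a lone short amplicon, so levels are compared between tumours and never between genes. Libraries held 2756919 to 4990391 counts with abemaciclib and 3044380 to 4492736 in control. Levels are CPM, a gene's counts brought to a common library total with TMM factors. The luminal keratins Krt8 and Krt18 and the epithelial adhesion gene Epcam had counts in every tumour, from 439 CPM upward in abemaciclib tumours and from 791 CPM upward in control tumours. The luminal factor Foxa1 was close to 0, at 0.459 to 6.66 CPM in abemaciclib tumours and 0 to 14.9 CPM in control tumours. Of 10 tested luminal markers, none was lower and 1 was higher at an unadjusted p under 0.05. Abemaciclib tumours 3 and 10 had the highest scores of all tumours on the third principal component. The edgeR calls after adjustment and the result for Kif5c are given with and without them. The spreads between tumours and the correlations with Mki67 are not given without this pair. Abemaciclib tumour 9 had the highest score on the second component. These are bulk samples, so fewer dividing cells and less of each transcript per dividing cell cannot be told apart.

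By edgeR's quasi-likelihood test, 0 of the 24 tested genes were called lower and 0 higher at a Benjamini-Hochberg adjusted p under 0.05, which is also the share of all 2925 panel genes tested, 0% in each direction. Adjusted p-values of the 24 ran from 0.134 to 0.893. At an unadjusted p under 0.05, 15 genes were lower, against 5.81% of all panel genes, and 0 were higher, against 7.59%. DESeq2's Wald test called 0 of the 24 lower, against 0.444% of panel genes, with smallest adjusted p of 0.0503 for Kif14 and Ccnb2. Limma-voom with sample quality weights, which gives less weight to tumours that stray from the rest, called 14 lower, against 2.39%, and 0 higher, against 1.95%. Of the 24 edgeR log2 fold changes 23 were negative, with a median of -0.86, against a median of 0.0055 over all panel genes tested. Fold changes and SE printed beside limma-voom p-values below are edgeR's. For each of the 14 genes the limma-voom estimate lay farther from 0. It was -0.82 against -0.77 for Cdc25b, -1.58 against -0.96 for Plk1 and -1.75 against -1.001 for Nek2. Aurkc, Plk3 and Tubb3 had too few counts to be tested. The filter asks for 2.46 CPM in about as many tumours as the smaller group holds. Kif14, Nek2, Cenpn and Ncapd2 reached it in 6, 8, 9 and 10 of 12 abemaciclib tumours and in 11 of 11 control tumours. These genes could thus pass on their control values alone. Kif14, Nek2 and Cenpn are counted in the 15 and in the 14 above.

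Mitotic kinases lay lower, though edgeR called 0 of them after adjustment. All 5 tested kinases had negative log2 fold changes, from -1.13 to -0.82, and all 5 were lower at an unadjusted p under 0.05. Their levels moved together between treated tumours, as given below against Mki67, so they are not 5 separate observations. Aurka (chromosome 2, 172356190 to 172370886, mm10), the aurora kinase that matures centrosomes and assembles the spindle, had 8.54 CPM in the lowest, 17.9 CPM in the median and 54.1 CPM in the highest abemaciclib tumour, against 21.9, 43.1 and 85.3 CPM in control tumours. The groups overlapped, but 7 of 12 abemaciclib tumours lay below every control tumour. Its log2 fold change was -0.92 (SE 0.289; 95% interval -1.51 to -0.33; edgeR adjusted p = 0.141, limma-voom adjusted p = 0.0157). It passed by edgeR when abemaciclib tumour 2 was left out (adjusted p = 0.0484). Aurkb (chromosome 11, 69045624 to 69051664), the catalytic subunit of the chromosomal passenger complex, which corrects faulty attachments to the spindle, had 4.10, 9.92 and 46.1 CPM in abemaciclib tumours, against 11.3, 37.1 and 76.6 CPM in control tumours, in the same order. Here too 7 of 12 lay below every control tumour, and the log2 fold change was -1.13 (SE 0.374; edgeR adjusted p = 0.157, limma-voom adjusted p = 0.0128).

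Plk1 (chromosome 7, 122159435 to 122169884) is the polo-like kinase that drives entry into mitosis and later cytokinesis. In log2 CPM it varied more between treated tumours than any other tested kinase but Nek2. Its lowest, median and highest values were 1.37, 9.87 and 60.1 CPM in abemaciclib tumours, against 14.1, 30.2 and 60.4 CPM in control tumours. The highest treated tumour thus stood level with the highest control tumour, while 7 of 12 lay below all control tumours. The log2 fold change was -0.96 (SE 0.419; edgeR adjusted p = 0.299, limma-voom adjusted p = 0.0144). Nek2 (chromosome 1, 191821449 to 191833049), which frees the centrosomes from each other, had 0.844, 5.67 and 25.2 CPM in abemaciclib tumours, against 6.64, 17.9 and 28.3 CPM in control tumours. The lowest of these rests on 3 counts, and 6 of 12 treated tumours lay below every control tumour. The log2 fold change of Nek2 was -1.001 (SE 0.436; edgeR adjusted p = 0.299, limma-voom adjusted p = 0.0137). Plk4 (chromosome 3, 40799951 to 40816883), which starts the building of new centrioles, had 3.32, 7.00 and 26.2 CPM in abemaciclib tumours, against 10.4, 14.7 and 41.6 CPM in control tumours, a log2 fold change of -0.82 (SE 0.347; edgeR adjusted p = 0.281, limma-voom adjusted p = 0.0452). Aurkc, the aurora kinase of germ cells, had 0 to 3 counts in abemaciclib tumours and 0 to 4 in control tumours, too few to compare.

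**Figure D1:**
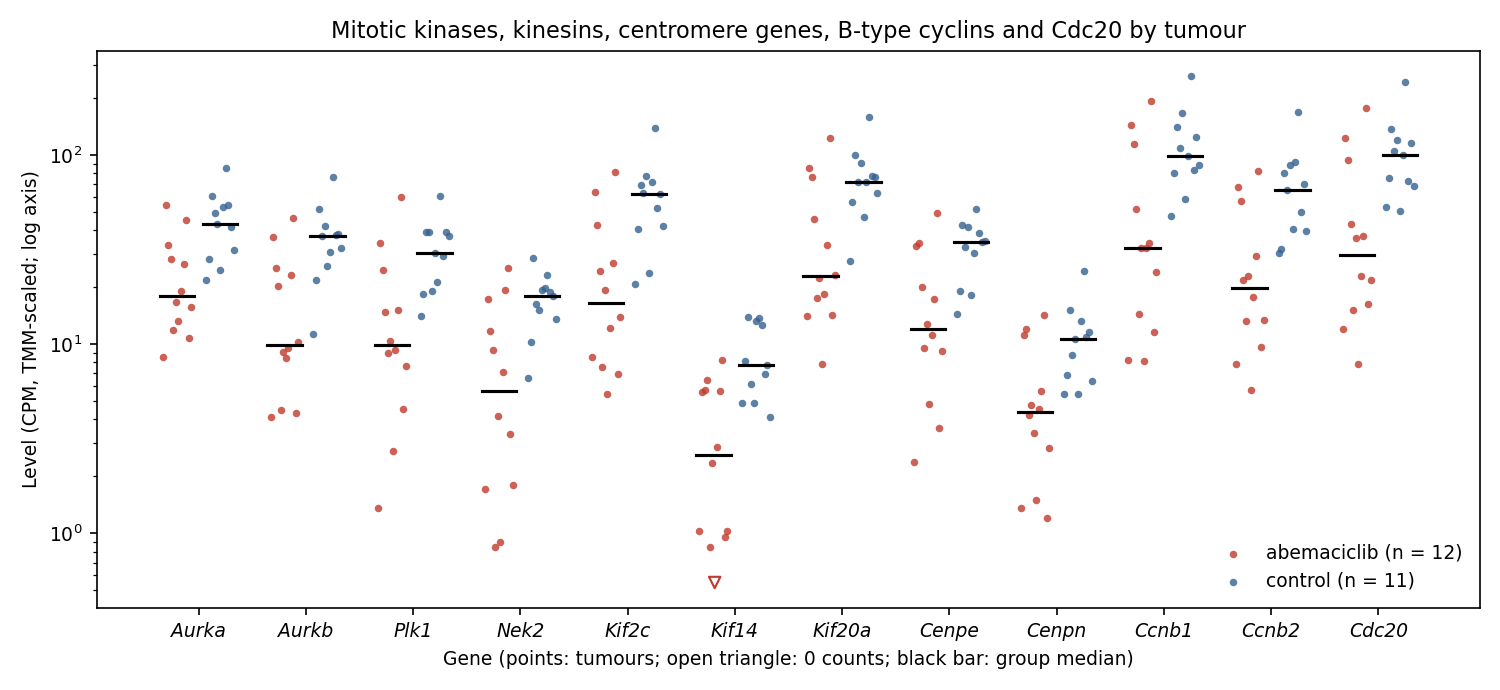
Level in CPM on a log axis of 12 genes in each of 12 abemaciclib (red, left of each pair) and 11 control (blue) tumours, with the group median as a black bar and the tumour with 0 counts of Kif14 as an open triangle at the foot of the axis. For Ccnb2 and Cdc20, 9 of 12 abemaciclib tumours lie below every control tumour, and the highest abemaciclib tumours reach well into the control range.

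The mitotic kinesins, motors that act on the spindle, had log2 fold changes of -1.34, -1.20 and -0.93 for Kif14, Kif2c and Kif20a. Kif14 (chromosome 1, 136466301 to 136555938), needed for the last step of cytokinesis, had 0, 2.61 and 8.26 CPM in the lowest, median and highest abemaciclib tumour, against 4.10, 7.75 and 13.8 CPM in control tumours. Abemaciclib tumour 7 had 0 counts of it, which allows up to 0.905 CPM by counting error (3 counts). In 11 of 12 treated tumours the level was under the control median, with SE 0.414 and adjusted p = 0.134 by edgeR, 0.0157 by limma-voom. Kif2c (chromosome 4, 117159633 to 117182624), which takes microtubules apart at wrongly attached kinetochores, had 5.43, 16.6 and 81.0 CPM in abemaciclib tumours, against 20.8, 62.2 and 139 CPM in control tumours (SE 0.410; edgeR adjusted p = 0.179, limma-voom adjusted p = 0.0111). Kif20a, which brings the passenger complex to the spindle midzone, had 7.84, 22.8 and 122 CPM in abemaciclib tumours, against 27.4, 72.2 and 159 CPM in control tumours (SE 0.376; edgeR adjusted p = 0.246, limma-voom adjusted p = 0.0137). For each of these 3 motors, 7 of 12 treated tumours lay below every control tumour.

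The 2 centromere genes on the panel lay lower to a like degree. Cenpe (chromosome 3, 135212563 to 135273540), the kinetochore motor that moves chromosomes to the spindle equator, had 2.39, 12.0 and 49.6 CPM in abemaciclib tumours, against 14.4, 34.5 and 51.8 CPM in control tumours, a log2 fold change of -0.91 (SE 0.375; edgeR adjusted p = 0.262, limma-voom adjusted p = 0.0170). Cenpn (chromosome 8, 116921716 to 116941504), which recognises the CENP-A nucleosomes that mark centromeres, had 1.20, 4.39 and 14.2 CPM in abemaciclib tumours, against 5.44, 10.6 and 24.2 CPM in control tumours, a log2 fold change of -0.93 (SE 0.369; edgeR adjusted p = 0.232, limma-voom adjusted p = 0.0238). Below every control tumour lay 7 of 12 treated tumours for Cenpe and 8 of 12 for Cenpn. No other kinetochore gene within the rule was on the panel.

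B-type cyclins, which activate CDK1 at mitotic entry, and Cdc20, the activator that turns the anaphase-promoting complex on the B-type cyclins, lay below every control tumour in 8 or 9 of 12 treated tumours. Ccnb2 (chromosome 9, 70407689 to 70421554) had 5.73, 19.7 and 81.9 CPM in abemaciclib tumours, against 30.3, 65.0 and 169 CPM in control tumours, with 9 of 12 below every control tumour. Its log2 fold change was -1.24 (SE 0.397; edgeR adjusted p = 0.146, limma-voom adjusted p = 0.0137). Ccnb1 (chromosome 13, 100778739 to 100786486) had 8.14, 32.2 and 193 CPM in abemaciclib tumours, against 47.6, 98.9 and 261 CPM in control tumours, with 8 of 12 below every control tumour. Its log2 fold change was -1.03 (SE 0.460; edgeR adjusted p = 0.310, limma-voom adjusted p = 0.0132). Cdc20 (chromosome 4, 118432901 to 118437343) had 7.84, 29.7 and 178 CPM in abemaciclib tumours, against 50.8, 100.4 and 243 CPM in control tumours, with 9 of 12 below every control tumour. Its log2 fold change was -1.03 (SE 0.427; edgeR adjusted p = 0.265, limma-voom adjusted p = 0.0128).

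The CDC25 phosphatases, which strip inhibitory phosphates from CDKs, parted. Cdc25b (chromosome 2, 131186436 to 131198511), the form that starts CDK1 activation, had 5.13, 12.3 and 39.5 CPM in abemaciclib tumours, against 14.7, 25.0 and 64.0 CPM in control tumours, a log2 fold change of -0.77 (SE 0.294; edgeR adjusted p = 0.214, limma-voom adjusted p = 0.0494). Of its 12 treated tumours, 8 lay below every control tumour. Cdc25a, which also acts at entry into S phase, had 9.83, 17.8 and 29.4 CPM in abemaciclib tumours, against 11.2, 22.0 and 25.9 CPM in control tumours, a log2 fold change of -0.24 (SE 0.167; edgeR 95% interval -0.59 to 0.10 and adjusted p = 0.565). The groups overlapped almost wholly for Cdc25a, with 2 treated tumours below and 1 above every control tumour, although 11 of 12 lay below the control median. The difference between the phosphatases was not tested.

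**Figure D2:**
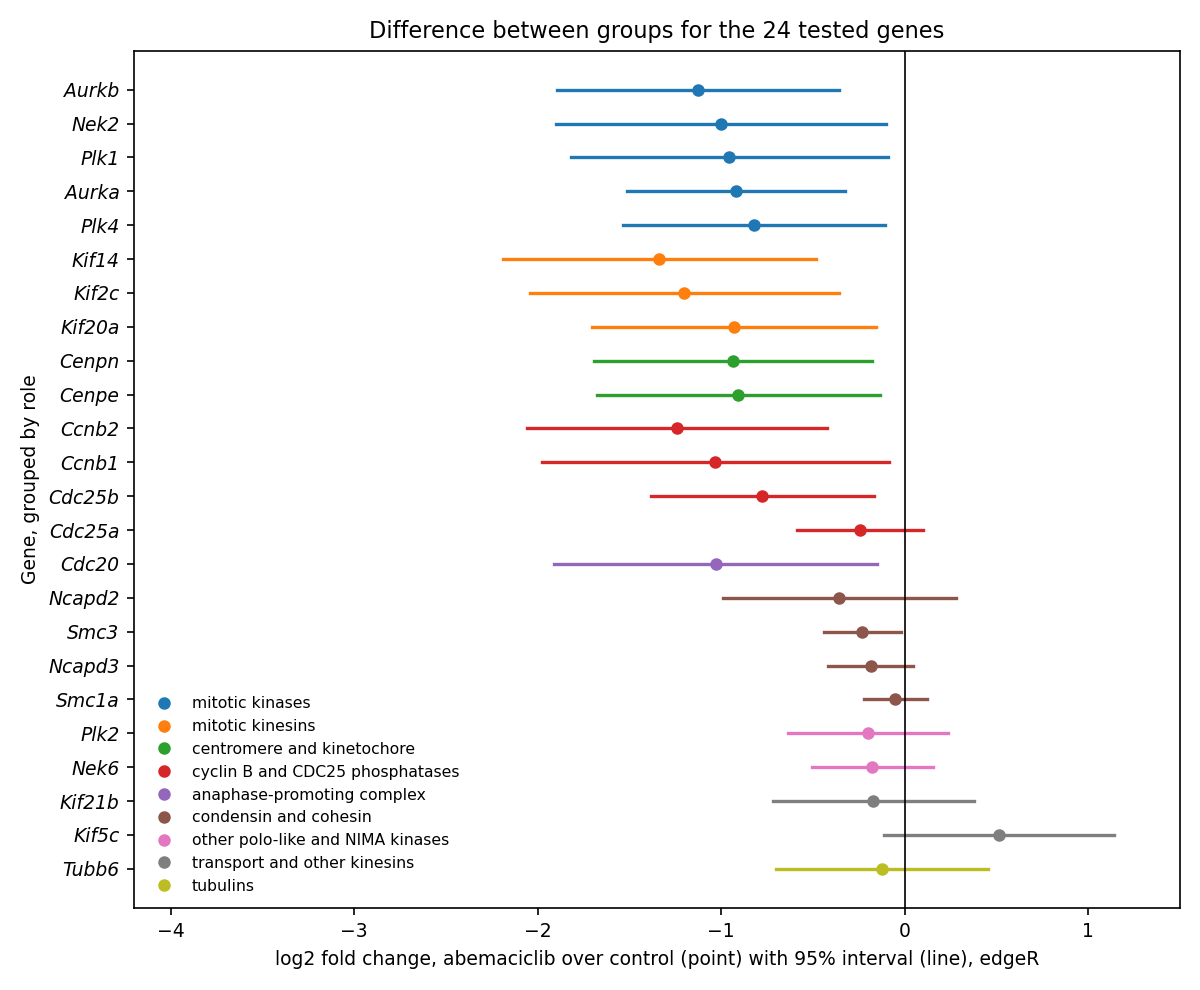
Log2 fold change of abemaciclib over control for the 24 tested genes, grouped and coloured by role, with the 95% interval from edgeR. Intervals exclude 0 for 15 genes, which include every tested mitotic kinase, mitotic kinesin and centromere gene, and no interval lies wholly above 0.

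Condensin and cohesin are the ring complexes that fold chromosomes and hold sister chromatids. The 4 subunits chosen here had log2 fold changes from -0.35 to -0.05, while the condensin subunit Smc4, which is outside the rule, lay lower at -0.84. Smc1a (chromosome X, 152016428 to 152061973), a cohesin core subunit, had 165, 203 and 271 CPM in abemaciclib tumours, against 158, 219 and 256 CPM in control tumours, a log2 fold change of -0.05 (SE 0.0832; edgeR 95% interval -0.22 to 0.12 and adjusted p = 0.846). Smc3 (chromosome 19, 53600396 to 53645831), its partner in the ring, had 68.6, 81.9 and 113 CPM in abemaciclib tumours, against 79.9, 97.0 and 127 CPM in control tumours, a log2 fold change of -0.23 (SE 0.102, unadjusted p = 0.0326, adjusted p = 0.303 by edgeR, 0.200 by limma-voom). The condensin II subunit Ncapd3 was at -0.19 (SE 0.114, adjusted p = 0.501) and the condensin I subunit Ncapd2 at -0.35 (SE 0.308, adjusted p = 0.655), by edgeR. The interval of Ncapd2, -0.99 to 0.28, still holds changes as large as those of Aurka, Plk1 and Plk4, but not those of Aurkb and Nek2. It rests on 5 counts in its lowest treated tumour and 17 in its lowest control tumour. The lower ends for Smc1a, Smc3 and Ncapd3 were -0.22, -0.44 and -0.42.

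None of the 5 other tested genes, which are 2 further kinases, 2 cargo or other kinesins and a tubulin, was lower or higher at an unadjusted p under 0.05. Plk2, a stress-induced polo-like kinase, had 58.8 to 170 CPM in abemaciclib tumours and 69.4 to 239.8 CPM in control tumours, at a log2 fold change of -0.20 (SE 0.212; edgeR adjusted p = 0.717). Nek6, a kinase that helps build the spindle, had 48.9 to 138 CPM and 73.2 to 159 CPM in the same order of groups, at -0.18 (SE 0.160, adjusted p = 0.671). Tubb6, a broadly made beta-tubulin, was at -0.12 (SE 0.281, adjusted p = 0.893), and 5 treated tumours lay below and 1 above every control tumour. Kif21b, a motor that slows microtubule growth in neurons and lymphocytes, was at -0.17 (SE 0.266, adjusted p = 0.829). Kif5c, a cargo kinesin best known from neurons, was the only tested gene with a positive value, with 6.52 to 45.3 CPM in abemaciclib tumours and 3.58 to 24.5 CPM in control tumours, at 0.51 (SE 0.304; edgeR 95% interval -0.11 to 1.14 and adjusted p = 0.481). Without control tumour 6 its unadjusted p was 0.0437, and without abemaciclib tumours 3 and 10 it was 0.0234. Tubb3, a neuronal beta-tubulin, had 0 to 93 counts in abemaciclib tumours and 1 to 35 in control tumours. Plk3, a stress-response kinase, had 0 to 5 counts in abemaciclib tumours and 0 in every control tumour. This allows up to 0.907 CPM in control tumour 6, where the limit is highest.

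The 12 treated tumours differed from each other. In abemaciclib tumours 1, 5, 6, 7, 8, 11 and 12, 14 to 18 of the 24 tested genes lay below every control tumour, while 7.59% to 16.2% of all panel genes did so. In abemaciclib tumours 2, 3 and 10 only 1 of 24 did, with 7.38% to 9.78% of all panel genes. Tumours 4 and 9 came between, with 4 and 6 of 24, against 6.87% and 22.4% of all panel genes. The 6 of 24 in tumour 9 is thus near the share of the panel in that tumour. Tumour 10 had the highest level of the group for 14 of 24 genes. It lay above the control median for 19 of 24, against 49.0% of all panel genes. Tumours 7 and 1 had the lowest level of the group for 8 and 6 genes. In tumour 9, Smc1a, Kif5c, Ncapd2 and Tubb6 lay above every control tumour. Control tumours also ranged widely, for control tumour 8 lay above the other 10 control tumours for 15 of 24 genes and control tumour 1 below them for 12 of 24.

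At least 6 of 12 abemaciclib tumours lay below every control tumour for 14 of the 24 tested genes, against 4.14% of all panel genes tested. These were all 5 tested mitotic kinases, all 3 mitotic kinesins, both centromere genes, both B-type cyclins, Cdc25b and Cdc20. The reverse, at least 6 of 12 above every control tumour, was seen for 0 of 24 genes, against 4.24%. The 14 genes are the ones that limma-voom called. Leaving out abemaciclib tumours 3 and 10, edgeR called 12 of 24 lower, against 2.09% of panel genes, with adjusted p from 0.0181 for Ccnb2 upward, an alternative chosen after seeing the data. Both tumours are among the 3 treated ones with 1 of 24 genes below every control tumour, so leaving them out by itself lowers the treated levels, and the 12 calls are no independent support. Without tumour 9, edgeR called 0 of 24. Without tumour 10 alone it called Aurkb, Ccnb2 and Kif2c (adjusted p = 0.0486 each), against 0.89% of panel genes. Without tumour 2 alone it called Aurka, against 0.377%. Without control tumour 8, the tumour with the highest levels, 8 genes in place of 15 were lower at an unadjusted p under 0.05.

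**Figure D3:**
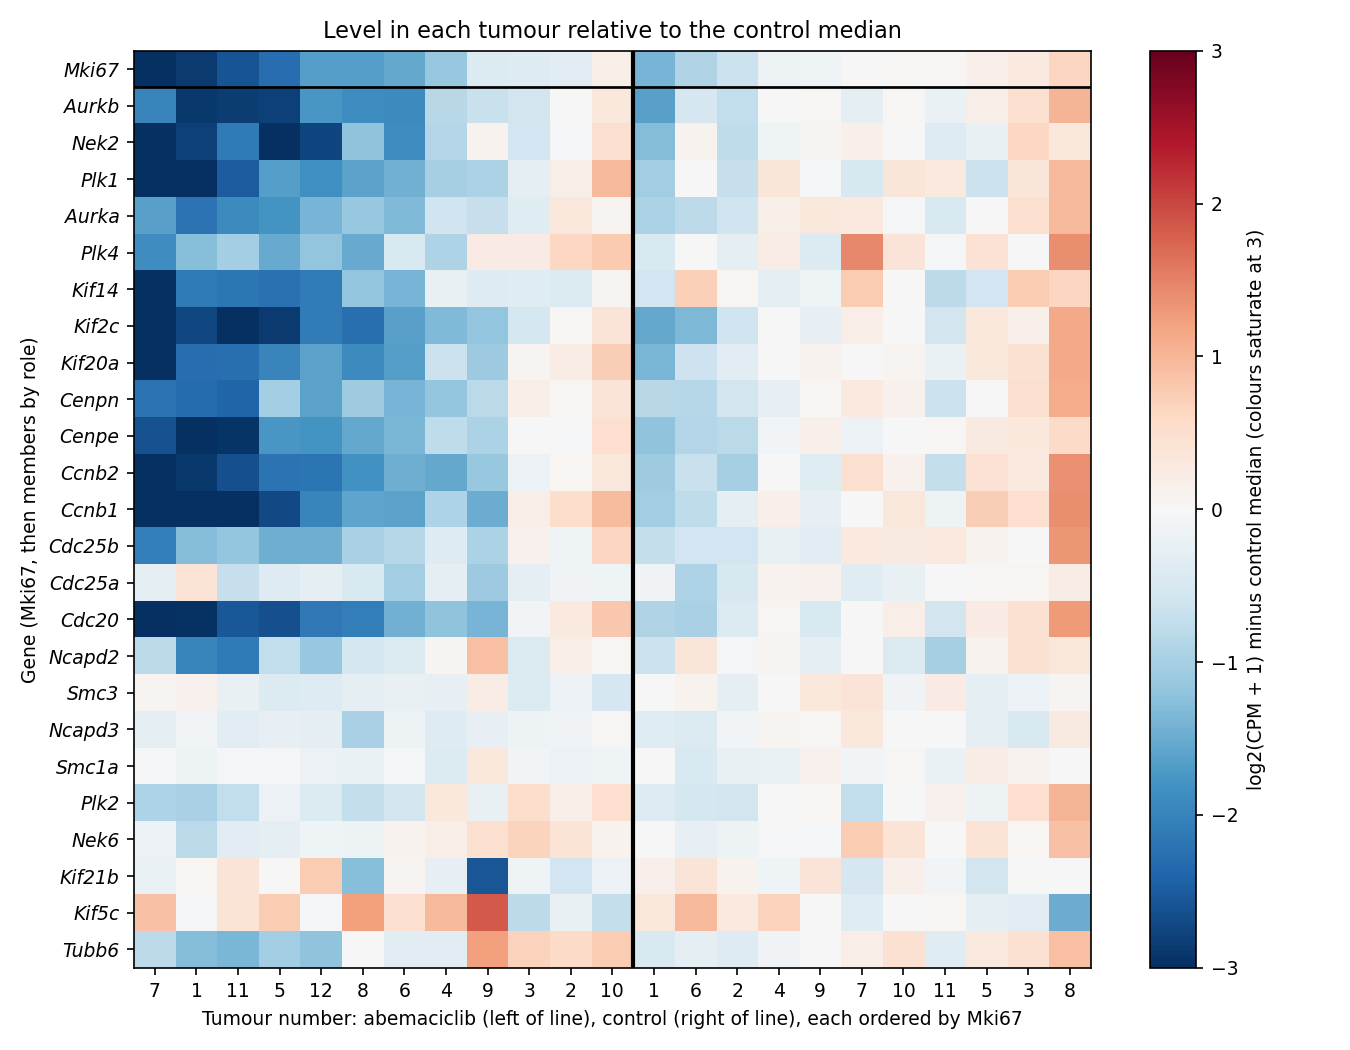
Level of Mki67 and the 24 tested genes in each tumour, as log2(CPM + 1) minus the control median, with abemaciclib tumours left of the black line and control tumours right of it, each ordered by Mki67. Blue blocks run through the kinases, kinesins, centromere genes, cyclins and Cdc20 in the abemaciclib tumours with the lowest Mki67 and fade towards tumour 10, while the rows of Smc1a, Smc3 and Ncapd3 stay pale.

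On the log2 scale, the spread between tumours was wider with the drug for most of these genes. The SD of log2 CPM was larger in abemaciclib than in control tumours for 22 of 24 tested genes, against 63.3% of all panel genes, with Smc1a and Ncapd3 the exceptions. Over the 24 genes the median SD was 0.973 with abemaciclib and 0.592 in control, beside 0.381 and 0.337 over all panel genes. Ccnb1 had an SD of 1.53 with abemaciclib and 0.685 in control, Nek2 1.51 and 0.554, and Plk1 1.41 and 0.612, in the same order. Smc1a had 0.165 and 0.198. In CPM the direction differed between genes. There the SD was 60.8 with abemaciclib and 59.6 in control for Ccnb1, and 25.5 and 39.8 for Ccnb2. The lowest treated tumours held 3 counts of Nek2 and 4 of Plk1. What low counts add to the log2 spread was not tested. No test of these spreads was made.

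**Figure D4:**
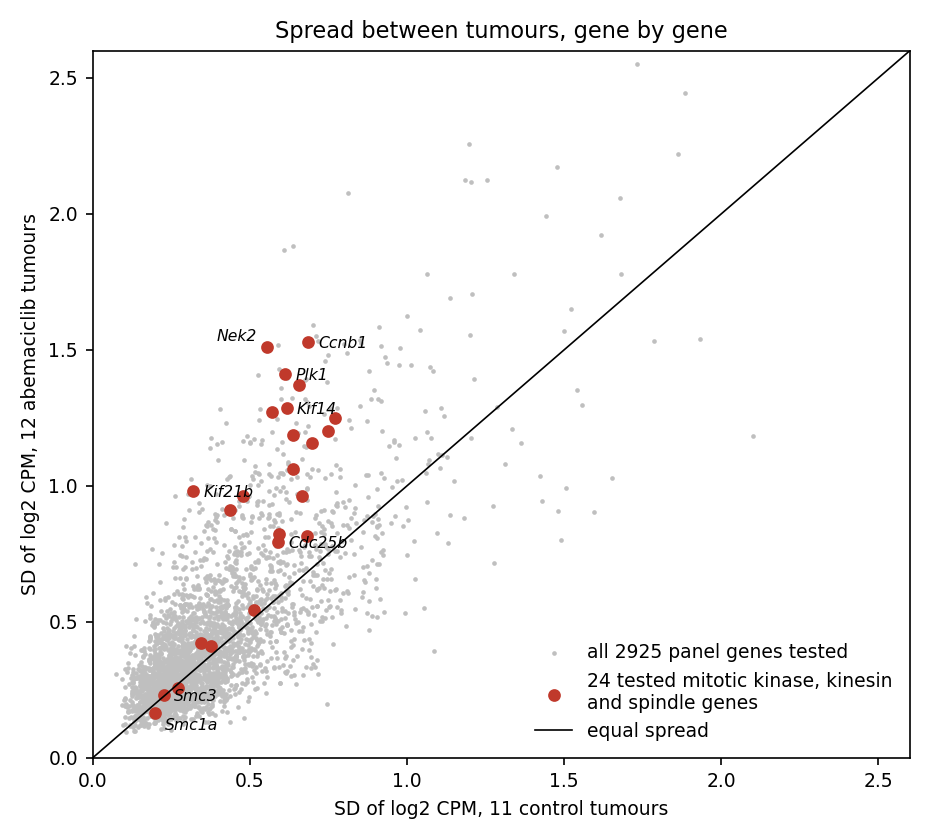
SD of log2 CPM across 12 abemaciclib tumours (vertical) against 11 control tumours (horizontal) for all 2925 tested panel genes (grey) and the 24 tested mitotic kinase, kinesin and spindle genes (red), with the line of equal spread. Nek2, Ccnb1 and Plk1 lie far above the line, and Smc1a and Smc3 lie on or near it.

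Within each group, levels were set against Mki67, a marker of dividing cells that is not among the 27 genes, as a check of how far each gene's level moves with that marker when all tumours had the same treatment. In abemaciclib tumours 18 of 24 genes were positively correlated with Mki67 at an adjusted p under 0.05 (permutation test on Pearson's r, n = 12, adjusted over all panel genes in both groups), against 9.68% of all panel genes. In control tumours 11 of 24 were (permutation test, n = 11), against 2.8%. Mki67 spanned 9.05 to 109 CPM in abemaciclib tumours and 35.8 to 152 CPM in control tumours. In log2 CPM, the scale of the correlations, it spanned 3.25 to 6.78 and 5.18 to 7.25, a narrower range in control tumours. The part of this range in the 2 counts was not tested. Points within a group share the scaling of each library. With library totals alone in place of TMM the control count was 19.

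Ccnb2 followed Mki67 closely in abemaciclib tumours, with Pearson's r of 0.964 (adjusted p = 0.00183 by permutation) and Spearman's rho of 0.993 (adjusted p = 0.00172 by permutation), and r of 0.939 without the 2 tumours farthest from the median. Its raw p was 1e-05 for both, the smallest that 100000 resamples can give. In control tumours Ccnb2 had r of 0.836 (adjusted p = 0.0181 by permutation) and rho of 0.755 (adjusted p = 0.0742). Cenpe had the highest r in control tumours, 0.968 (adjusted p = 0.00183 by permutation; rho 0.927, adjusted p = 0.00704), and r was 0.924 without the 2 farthest tumours. Kif14 had r of 0.933 (rho 0.902; adjusted p = 0.00239 for r by permutation) in abemaciclib tumours and 0.240 (rho 0.191; adjusted p = 0.675) in control tumours, and its r was 0.894 and 0.333 without the 2 farthest tumours of each group. Tubb6, whose group difference was small, had r of 0.866 in abemaciclib (adjusted p = 0.0110 by permutation) and 0.814 in control tumours (adjusted p = 0.0263). Plk2 and Nek6 had r of 0.849 and 0.813 in abemaciclib tumours (adjusted p = 0.0160 and 0.0214 by permutation), and 0.684 and 0.634 in control tumours (adjusted p = 0.113 and 0.144). The genes that did not follow Mki67 in either group were Cdc25a, Ncapd3, Smc1a, Smc3, Kif21b and Kif5c. Of these Kif5c had r of -0.736 in control tumours (adjusted p = 0.0796 by permutation), with rho of -0.827 (adjusted p = 0.0344), and -0.288 in abemaciclib tumours (adjusted p = 0.575). The differences in r between groups were not tested.

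**Figure D5:**
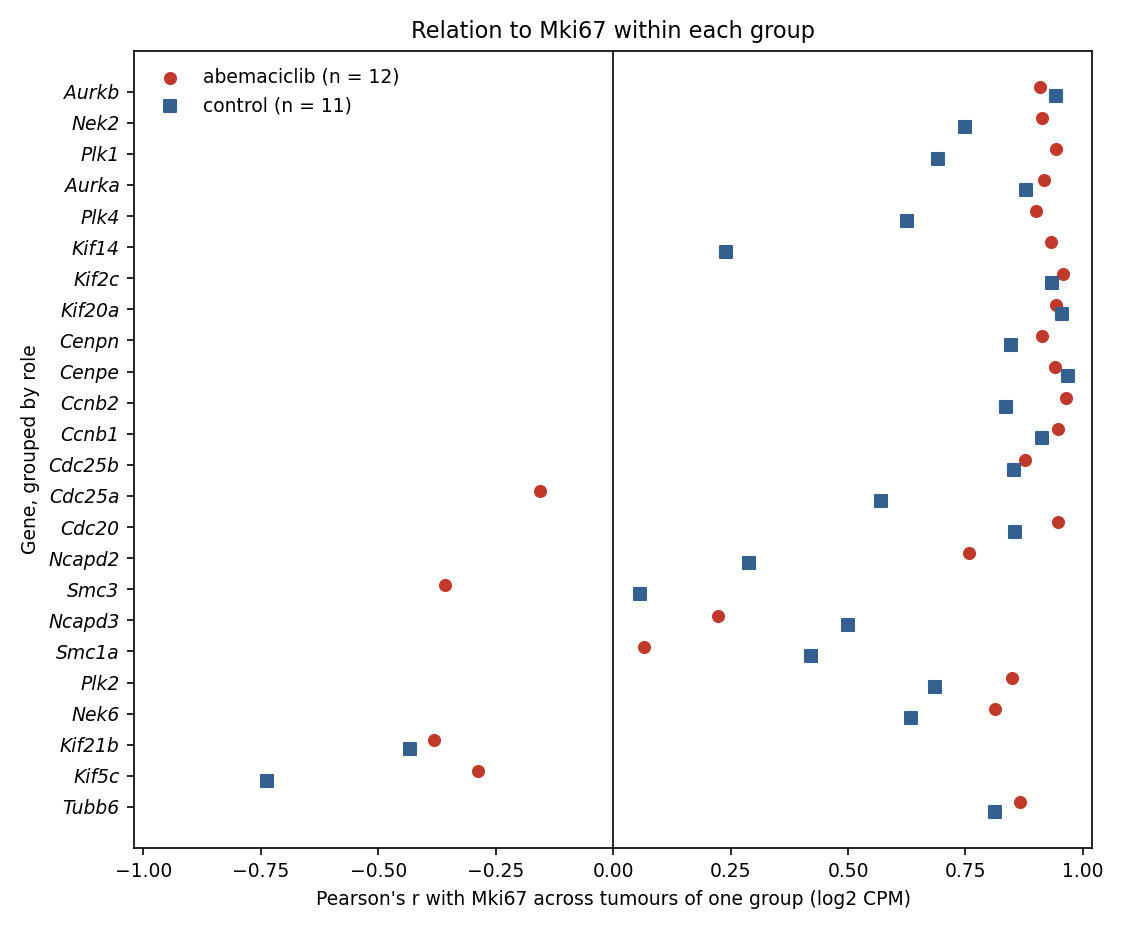
Pearson's r of each of the 24 tested genes with Mki67 across 12 abemaciclib tumours (red circles) and 11 control tumours (blue squares), in log2 CPM. The mitotic kinases, mitotic kinesins, centromere genes, B-type cyclins and Cdc20 stand between 0.901 and 0.964 in abemaciclib tumours, and the cohesin genes and Kif5c stand at 0.066 or below.

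Mitosis genes outside the rule were read as a further list. It includes Bub1b, Smc4 and Cdc25c, which belong to the chosen families and were set aside by name. Of 23 such genes on the panel, all were tested, 22 had negative values with a median log2 fold change of -0.97, 17 were lower and 0 higher at an unadjusted p under 0.05 (5.81% and 7.59% of all panel genes). After adjustment 0 were called by edgeR and 16 were called lower by limma-voom (2.39% of all panel genes). The 5 with the smallest p were the condensin subunit Smc4, the checkpoint kinase Bub1b, the phosphatase Cdc25c, the transcription factor Foxm1 and the hyaluronan receptor Hmmr, which also acts at the spindle. Smc4 had 44.0, 63.0 and 132 CPM in the lowest, median and highest abemaciclib tumour, against 86.0, 118 and 210.2 CPM in control tumours, with 9 of 12 treated tumours below every control tumour. Its log2 fold change was -0.84 (SE 0.181; adjusted p = 0.0578 by edgeR, 0.00496 by DESeq2, 0.00709 by limma-voom). DESeq2 also called Bub1b lower (adjusted p = 0.0296). Foxm1 had 1.71, 7.09 and 23.6 CPM in the lowest, median and highest abemaciclib tumour, against 10.1, 18.9 and 32.4 CPM in control tumours, a log2 fold change of -1.01 (SE 0.315; edgeR adjusted p = 0.134, limma-voom adjusted p = 0.0111). Hmmr had 8.45, 17.5 and 119 CPM in abemaciclib tumours, against 37.8, 70.4 and 199.6 CPM in control tumours, a log2 fold change of -1.28 (SE 0.408; edgeR adjusted p = 0.146, limma-voom adjusted p = 0.00948). Among the cohesin-related genes Rad21, Stag1 and Nipbl the log2 fold changes were -0.21, -0.11 and -0.07 (edgeR adjusted p = 0.368, 0.673 and 0.873).

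Markers of other cell types were read beside these genes. Of 6 macrophage markers tested, 4 were higher and 0 lower at an unadjusted p under 0.05 (7.59% and 5.81% of all panel genes) and 3 were called higher by limma-voom (1.95%), with summed levels of 1907 to 4544 CPM in abemaciclib and 1431 to 3013 CPM in control tumours. Their part in the lower mitotic genes was not tested. For fibroblast and endothelial markers, 0 of 9 and 0 of 8 tested genes were lower or higher at that threshold, with medians of 0.37 and 0.10. The summed fibroblast level ranged from 1910 to 22212 CPM in abemaciclib and from 3660 to 9343 CPM in control tumours. Of the markers of T cells, B cells, neutrophils and adipocytes on the panel, 5 of 10, 1 of 5, 3 of 5 and 3 of 5 were tested. Their medians were 0.31, 0.58, 0.23 and 0.40, with 1 B cell and 1 neutrophil gene higher and none lower at an unadjusted p under 0.05. Of 7 housekeeping genes 1 was higher and 0 lower at that threshold. The small nuclear RNA Rn7sk, which took 6.49% to 16.4% of counts in abemaciclib and 6.62% to 23.2% in control tumours, was at 7.91% in abemaciclib tumour 10 and 6.62% in control tumour 8, the tumours with the highest level of their group for the most of these genes. It was at 6.49% in abemaciclib tumour 12. Its part in the results was not tested beyond leaving Rn7sk out of the fit, which kept 15 genes lower at an unadjusted p under 0.05.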

How the data were processed

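The authors deposited 1 table of raw read counts, not normalized, for 23 tumours. They made it from an Ion AmpliSeq custom panel with 1 short amplicon a gene, per the labels' protocols. The submitters' processing notes name mm10. Which aligner and counter were run, and where amplicons lie, is not given in the sources used here. Reads carry no molecular identifiers, so limits drawn from counts cover counting error only. No pair of tumours agreed within sampling noise (smallest chi-square per degree of freedom 18.4 over 253 pairs).

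The table was tested with edgeR 4.0.16 under R 4.3.3 (filterByExpr, TMM, glmQLFit, glmQLFTest, two-sided, Benjamini-Hochberg over the 2925 genes kept), with DESeq2 1.42.0 and limma 3.58.1 as alternatives, and checked on simulated data. SE is the log2 fold change over the root of the F statistic. Mki67 correlations used log2 CPM with a prior count of 2 and 100000 resamples, two-sided; they were planned with adjustment over the tested members and are reported adjusted over all panel genes, which is stricter. Gene positions and promoters came from RefSeq tables of GRCm38.p6, which matched 27 and 23 of the 27 symbols. The genes, lists and tests were chosen with earlier results of these data known. The rule for named genes takes up to 5 genes of smallest p in each role list and a fixed set, here nearly every gene of the module.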

Additional observations from a re-analysis of the deposited data

How the results depend on the processing

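The count of genes lower at an adjusted p under 0.05, 0 by edgeR, was 14 by limma-voom with quality weights and 12 without abemaciclib tumours 3 and 10, an alternative added with the data known, and 0 to 3 over the 23 fits that left out 1 tumour each. It was 0 under the other scalings and filters tried, by DESeq2's Wald test and without Rn7sk; library totals alone moved the median of all panel genes to -0.12. The count lower at an unadjusted p under 0.05, 15, was 8 to 16 without single tumours. The count higher at that threshold, 0, was 1 with no filter on low counts (Plk3), 1 without tumours 3 and 10 (Kif5c) and 0 to 1 without single tumours (Kif5c without control tumour 6). The median log2 fold change, -0.86, ran from -1.15 to -0.70 over all alternatives, and no named gene turned direction. The count correlated with Mki67 was 16 to 18 in abemaciclib and 10 to 13 in control tumours without single tumours, and 19 in control with library totals alone; the cause was not tested. With the tumour number as a replicate block, 14 genes were lower at an unadjusted p under 0.05 and 0 after adjustment, with a median of -0.93. Same-numbered tumours deviated together with correlations from -0.43 to 0.45, above 0.1 in 5 of 11 pairs. Whether they share more than a number cannot be told from these values. Depth limits Kif14, Kif21b, Nek2, Cenpn and Plk1, at 0, 2, 3, 4 and 4 counts in their lowest abemaciclib tumours, and left Aurkc, Plk3 and Tubb3 untested.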
